A study of Mus musculus with 5 samples.

Results

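The transcripts of 42 genes of the autophagy machinery and the lysosome, taken by name from a list whose rule uses no measured value, were described in mouse muscle, out of 35275 genes in the table. They fall into an autophagy set of 26 genes, a lysosome set of 14 genes, and the transcription factors Tfeb and Tfe3, which were kept in neither set. All 42 symbols matched 1 gene identifier each in GENCODE M21 (build GRCm38), from which gene positions are given, and all 42 passed the filter of a mean of 1 FPKM or more (fragments per kilobase of gene, scaled to the depth of the library).

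Autophagy encloses cytoplasm, organelles and tagged proteins in a double membrane and hands them to the lysosome, an acidic compartment in which cathepsins and other hydrolases break them down. A kinase complex around Ulk1 starts the process, a lipid kinase complex around Pik3c3 and Becn1 marks the growing membrane, and a pair of conjugation systems attaches proteins of the ATG8 family (LC3 and GABARAP) to it. Receptors such as Sqstm1 (p62) bind cargo to the ATG8 proteins. In skeletal muscle this route clears damaged mitochondria and proteins, is induced by fasting and exercise through FoxO factors and Tfeb, and takes part in muscle wasting; macrophages are also known for their many lysosomes.

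Messenger RNA was sequenced from the tissue labelled GA muscle of female NSG mice, an immunodeficient strain whose labels give the genotype as wild type, at week 12 of age. All samples belonged to 1 group, which had received 10 tail-vein injections of extracellular vesicles from MCF-10A/miR122 cells, 2 a week for 5 weeks with about 10 ug each, and were taken 2 days after the last one. MCF-10A is a human mammary epithelial line that does not form tumours, and miR-122 is a microRNA abundant in liver. The labels number the samples 1 to 5 without saying that each is a separate animal, so p-values and SDs measure the spread between these samples, and with 1 group no effect of the vesicles can be read from them.

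The 5 libraries held 16674504 to 25407988 reads. Reads behind a member's value ranged from 142 to 21897, so counting alone gave a coefficient of variation (CV, the SD as a percentage of the mean) from 0.730% for Psap to 8.08% for Atg10. For 15 members, Atg10, Atg14 and Atg4d among them, the reads rest on a length that is not the longest annotated transcript and could be off by a common factor, and so could their counting error. Markers of muscle fibres dominated every library, with Acta1 between 30567 and 34537 FPKM. Library 3 held the most transcripts of several other cell types: against 37.4% of all genes tested, it was the highest for 13 of 13 macrophage markers, 5 of 5 adipocyte markers, 4 of 4 measured erythroid markers, 4 of 5 Schwann cell markers and 6 of 8 fibroblast markers (4 of 8, against 27.0% of all genes, under median-of-ratios scaling, in which each library is divided by its median ratio to the genes' geometric means). It was the highest for 1 of 7 endothelial markers and 0 of 2 measured neutrophil markers. The summed macrophage level was 401 FPKM there against 101 to 135 in the others, and none of the 13 was at 0 in all libraries. In bulk tissue, more cells of a type cannot be told apart from more RNA per cell.

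The lysosome set was highest in library 3, and in FPKM the autophagy set as a whole was nearly level across the libraries. Of the 14 lysosomal genes, 12 had their highest level in library 3, against 37.4% of all 10710 genes tested and 7 of 26 autophagy genes. In libraries 1, 2, 4 and 5 the numbers of lysosomal genes at their highest were 1, 0, 1 and 0 and those of autophagy genes 4, 5, 7 and 3, against 21.2%, 23.2%, 10.5% and 7.68% of all genes. At their lowest in libraries 1 to 5 were 1, 2, 1, 3 and 7 lysosomal genes and 3, 2, 5, 7 and 9 autophagy genes, against 10.2%, 9.8%, 17.1%, 38.0% and 24.9%. The mean deviation of the lysosomal genes from their own means, on the log2(FPKM + 1) scale, was -0.10, -0.02, 0.35, -0.03 and -0.19 in libraries 1 to 5. That of the autophagy genes was 0.01, 0.05, 0.02, -0.01 and -0.07. All genes tested gave 0.01, 0.06, 0.10, -0.10 and -0.08. The lysosome set minus the autophagy set was thus 0.33 in library 3 and -0.13 to -0.02 in the other libraries. Each gene is centred on its mean over the 5 libraries, so a high library 3 lowers the other 4. Without library 3 their differences were -0.03, 0.01, 0.06 and -0.05, and with the median over members that of library 4 was 0.11, so no direction is read from them. The difference in library 3 was 0.30 to 0.36 under every scaling, filter and pseudocount tried, with the median over members, and with any 1 of the other libraries left out. Under median-of-ratios scaling the mean deviations of the lysosome set in libraries 1 to 5 were -0.16, -0.11, 0.26, 0.12 and -0.10. Those of the autophagy set were then -0.05, -0.04, -0.07, 0.13 and 0.02, highest in library 4. The count of lysosomal genes highest in library 3 depended on the scaling, at 12 with FPKM, 11 with values rescaled to the same sum and 7 with median-of-ratios scaling, under which 27.0% of all genes were highest there. Median-of-ratios scaling gave 0, 0, 6 and 1 lysosomal genes and 0, 2, 14 and 6 autophagy genes in libraries 1, 2, 4 and 5, against 13.1%, 13.6%, 27.5% and 18.8% of all genes. Rescaling to the same sum (TPM) gave 2, 1, 0 and 0 lysosomal genes and 5, 3, 3 and 3 autophagy genes there, against 25.8%, 21.6%, 6.66% and 7.64%, and 12 autophagy genes in library 3, against 38.3%. Several marker lists were also high in library 3, at a mean deviation of 1.64 for adipocyte, 1.27 for erythroid, 1.25 for macrophage, 0.45 for Schwann cell and 0.35 for fibroblast markers. Their part in the result was not tested.

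**Figure D1:**
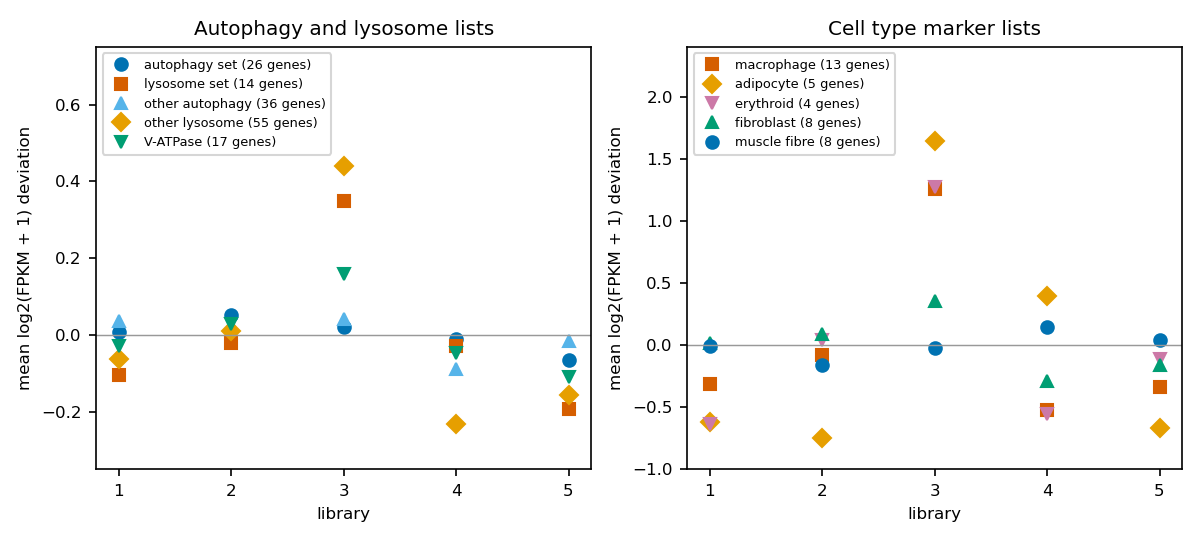
Mean deviation of each gene list from the means of its genes on the log2(FPKM + 1) scale (vertical axis) in libraries 1 to 5, with 1 point per list and library; autophagy and lysosome lists on the left, cell type markers on the right on a wider scale. The lysosome set stands at 0.35 and the macrophage markers at 1.25 in library 3, and the autophagy set stays between -0.07 and 0.05.

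The ATG8 family was the most abundant part of the conjugation machinery. Map1lc3a, which encodes LC3A (ENSMUSG00000027602, chromosome 2, 155276297 to 155278073), was at 177, 183, 175, 200.5 and 173 FPKM in libraries 1 to 5. Gabarap was at 90.5, 106, 111, 115 and 90.1 FPKM, Map1lc3b (LC3B) at 50.3, 47.4, 37.1, 59.9 and 42.8, Gabarapl1 at 32.5, 35.4, 27.5, 39.02 and 25.4, and Gabarapl2 at 28.9, 28.6, 27.1, 26.3 and 25.5. Library 4 was the highest for 4 of these 5 genes, against 10.5% of all genes tested, for all 5 under median-of-ratios scaling, and for 3 when rescaled to the same sum. Library 3 was the lowest for Map1lc3b and library 5 for the other 4, against 17.1% and 24.9% of all genes tested. Under median-of-ratios scaling library 3 was the lowest for 4 and library 1 for Gabarap. The share of all genes lowest in each library was not taken under that scaling. The ratio of highest to lowest library was 1.61 for Map1lc3b and 1.53 for Gabarapl1, against 1.13 for Gabarapl2.

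Of the cargo receptors, Sqstm1 (ENSMUSG00000015837, chromosome 11, 50199366 to 50210827) was the most abundant gene of the autophagy set, at 182, 178, 239, 217 and 175 FPKM. Its values in libraries 3 and 4 were above those of the other 3, with library 3 the highest, or library 4 under median-of-ratios scaling. Nbr1, a receptor of related structure, was at 20.8, 19.7, 20.7, 16.7 and 18.8 FPKM and lowest in library 4, or in library 2 under median-of-ratios scaling. The log2 ratio of Sqstm1 to Nbr1 was 3.29 ± 0.25 (SD, n = 5) and positive in 5 of 5 libraries.

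The initiation kinases were lowest in library 3. Ulk1 (ENSMUSG00000029512, chromosome 5, 110784488 to 110810097) was at 19.03, 19.3, 11.3, 16.96 and 13.6 FPKM, a CV of 21.7% and the largest of the autophagy set. Ulk2 was at 19.4, 17.9, 14.7, 14.9 and 20.5 FPKM. Library 3 was thus the lowest for both, also under median-of-ratios scaling, while library 5 was low for Ulk1 and the highest for Ulk2. Neither kinase was the more abundant throughout, since Ulk1 exceeded Ulk2 in libraries 2 and 4 only. Atg13, a subunit that binds the kinases, was at 12.3, 16.1, 13.1, 12.02 and 12.6 FPKM, with library 2 apart from the rest.

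In FPKM the lipid kinase complex was among the steadiest groups of genes. Becn1, a regulatory subunit, was at 9.40, 8.46, 9.70, 9.27 and 9.01 FPKM, the catalytic subunit Pik3c3 at 7.22, 6.48, 7.02, 6.57 and 6.66, and Atg14, which directs the complex to autophagosomes, at 3.01, 3.10, 3.11, 2.82 and 3.10. None of the 3 differed between libraries beyond counting error (chi-square test on reads, Benjamini-Hochberg adjusted over all genes), against 88.1% of all genes tested that did. Their CVs of 5.13%, 4.65% and 4.04% stood beside 3.41%, 4.59% and 6.68% from counting. A call by that test depends on depth as well as on spread, and Atg14 had 179 to 272 reads. It also depends on scaling: under median-of-ratios scaling 38 of the 42 members were called in place of 35. Becn1 was then at 9.04, 7.91, 9.10, 10.4 and 9.65, Pik3c3 at 6.06 to 7.34 and Atg14 at 2.89 to 3.32.

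Atg9a, a membrane protein that supplies lipid vesicles, was at 21.9 to 24.9 FPKM, and the lipid transfer protein Atg2a at 5.68 to 6.70. The effectors that read the lipid mark were less even. Wipi1 was at 19.96, 23.4, 24.6, 15.6 and 16.3 FPKM, high in libraries 2 and 3, and Wipi2 at 9.40, 9.99, 7.58, 9.51 and 8.52, lowest in library 3. Wipi1 exceeded Wipi2 by a log2 ratio of 1.05 ± 0.35 (SD, n = 5), with the largest ratio, 1.58, in library 3.

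Of the 6 conjugation genes, Atg3 had the highest mean, 13.0 FPKM, and Atg7 the lowest. Atg3, the enzyme that passes ATG8 proteins to lipid, was at 12.6, 14.3, 14.2, 12.1 and 11.8 FPKM, and Atg7, which activates both ATG8 proteins and Atg12, at 3.93, 4.39, 5.50, 3.47 and 3.69. Atg10, which transfers Atg12 to Atg5, was at 4.15, 5.57, 5.29, 4.04 and 3.64 FPKM. Libraries 2 and 3 were the top pair for these 3 enzymes, though library 4 was the highest for Atg3 under median-of-ratios scaling. Atg5 was at 4.23, 4.31, 5.07, 4.21 and 4.13 FPKM, and Atg12 at 8.51, 8.14, 7.56, 7.63 and 9.68. Atg5, with 188 to 247 reads a library, did not pass the test beyond counting error, against 88.1% of all genes tested that did. Atg16l1, which brings the joined Atg12 and Atg5 to the membrane, was at 5.17 to 6.27 FPKM. In FPKM the proteases that trim ATG8 proteins were nearly level: Atg4d was at 17.8, 17.9, 18.7, 19.4 and 18.7, the smallest CV of all members at 3.47%. Under median-of-ratios scaling Atg4d was less even, at 17.1, 16.8, 17.5, 21.6 and 20.0. Atg4a was at 8.28, 9.09, 9.45, 8.86 and 9.74 FPKM and Atg4b at 4.92, 5.03, 5.54, 5.63 and 5.21. Under median-of-ratios scaling Atg4a ran from 7.96 to 10.4 and Atg4b from 4.70 to 6.29. None of the 3 proteases passed the test beyond counting error, against 88.1% of all genes tested that did. Atg4a had 347 to 545 reads a library and Atg4b 387 to 562. Under median-of-ratios scaling the test called 38 of the 42 members in place of 35. Which members gained a call is not given here.

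**Figure D2:**
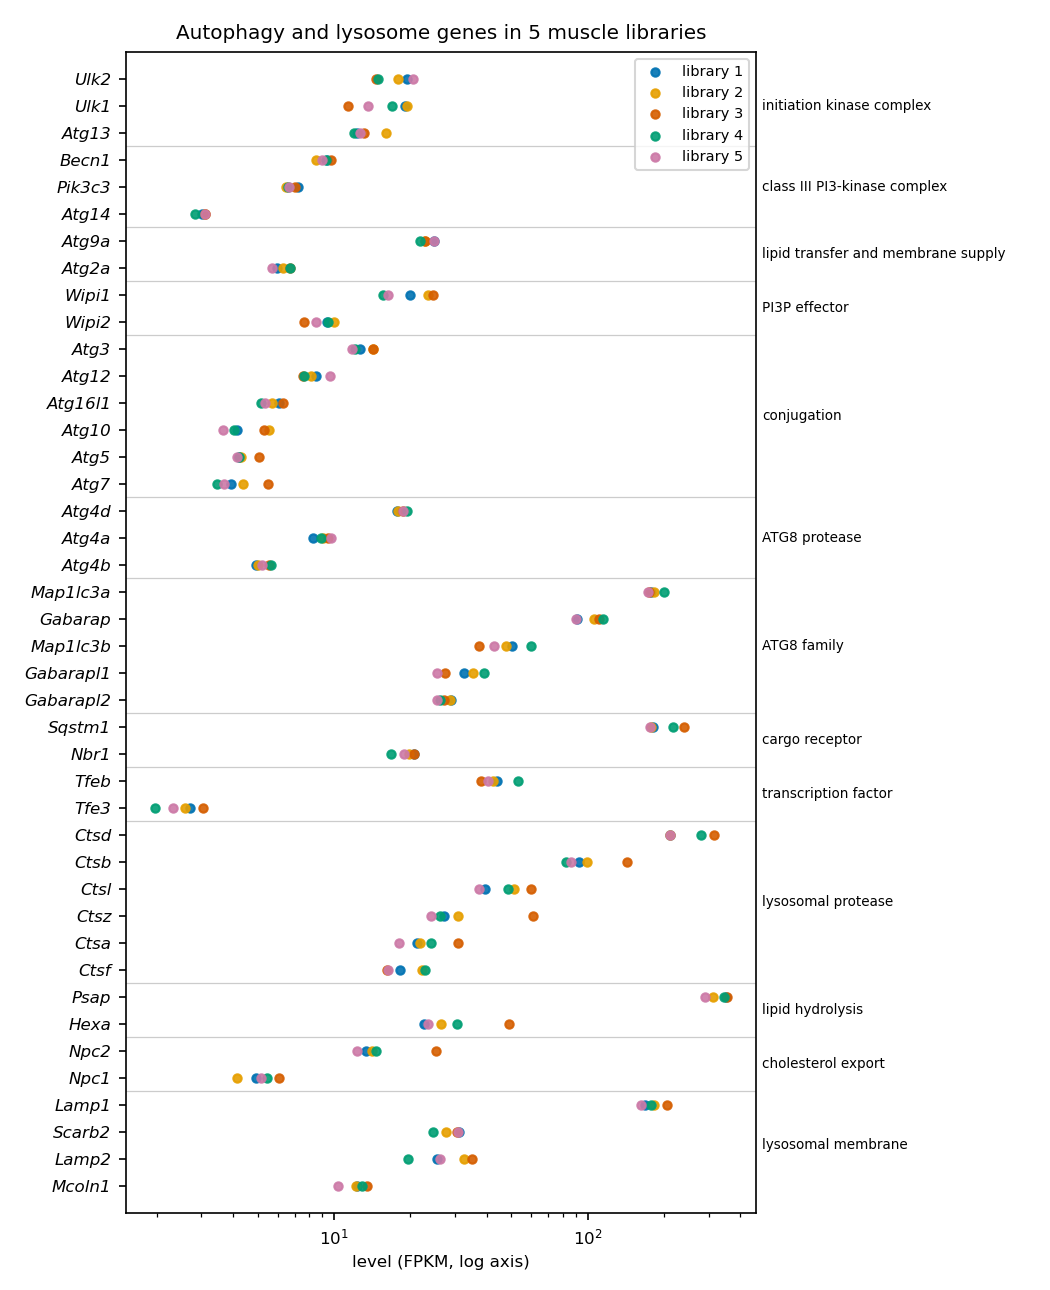
Level of the 42 genes in FPKM on a log axis, grouped by role, with 1 point per library coloured by library. Library 3 lies apart on the right for Ctsz, Hexa, Npc2 and Ctsb, and the points of Atg4d, Atg14 and Pik3c3 lie almost on each other.

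Tfeb and Tfe3 are related transcription factors that activate lysosomal and autophagy genes. Tfeb (ENSMUSG00000023990, chromosome 17, 47737030 to 47792419) was at 44.1, 42.2, 37.9, 53.2 and 40.4 FPKM, and Tfe3 at 2.70, 2.58, 3.03, 1.96 and 2.33. The order of the libraries was opposite at its ends, since library 4 was the highest and library 3 the lowest for Tfeb, and library 3 the highest and library 4 the lowest for Tfe3, in FPKM and under median-of-ratios scaling. The log2 ratio of Tfe3 to Tfeb was -3.66 ± 0.33 (SD, n = 5).

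Of the 6 lysosomal proteases, 5 were highest in library 3, against 37.4% of all genes tested. Under median-of-ratios scaling 4 of the 6 were, against 27.0% of all genes, and Ctsd was highest in library 4. Ctsd, the aspartic protease cathepsin D (ENSMUSG00000007891, chromosome 7, 142375911 to 142388038), was at 212, 211, 314, 280 and 212 FPKM, high in libraries 3 and 4 and level in the other 3. Ctsb (cathepsin B, ENSMUSG00000021939, chromosome 14, 63122462 to 63145923) was at 92.6, 98.96, 143, 81.9 and 85.7 FPKM, with library 3 apart. Ctsl (cathepsin L) was at 39.4, 51.03, 59.7, 48.6 and 37.2 FPKM. These 3 are among the endopeptidases that muscle fibres are known to express. Ctsz (cathepsin Z, ENSMUSG00000016256, chromosome 2, 174427493 to 174439039), a carboxypeptidase, had the largest spread of all members, at 27.1, 30.9, 60.8, 26.2 and 24.2 FPKM, and a CV of 45.2%. Its level in library 3 was 1.97-fold that of the next library. Ctsa, a carboxypeptidase that also protects other lysosomal enzymes, was at 21.1, 21.9, 30.8, 24.04 and 18.0 FPKM. Ctsf was the exception, at 18.2, 22.3, 16.2, 22.8 and 16.3 FPKM, high in libraries 2 and 4 and lowest in library 3.

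Among the proteins of lipid breakdown, Psap, the precursor of the saposins that present glycolipids to hydrolases, was the most abundant of all 42 genes and had the lowest CV of the lysosome set, 8.85%. Psap (ENSMUSG00000004207, chromosome 10, 60277627 to 60302597) was at 352, 311, 355, 346 and 289 FPKM, so library 3 exceeded library 1 by little, and each of 3 scalings put another library at the top. Hexa, a subunit of hexosaminidase (ENSMUSG00000025232, chromosome 9, 59539540 to 59565109), was at 22.7, 26.4, 49.2, 30.7 and 23.5 FPKM, 1.60-fold the next library in library 3. Npc2, the soluble carrier that takes cholesterol out of the lysosome (ENSMUSG00000021242, chromosome 12, 84754562 to 84773152), was at 13.4, 14.1, 25.3, 14.7 and 12.4 FPKM, 1.73-fold the next library in library 3. Its membrane partner Npc1 was at 4.91, 4.15, 6.06, 5.44 and 5.14 FPKM. The library 3 value stood apart for the soluble partner Npc2 but not for Npc1, and the log2 ratio of Npc2 to Npc1 was 1.90 there against 1.12 to 1.55 elsewhere.

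Of the 4 lysosomal membrane proteins, 3 had CVs of 9.25% to 9.72%, and Lamp2 had one of 22.1%. Lamp1, a main glycoprotein of the membrane, was at 168, 183, 205.5, 178 and 163 FPKM, and Lamp2, which serves fusion with autophagosomes and chaperone-mediated autophagy, at 25.5, 32.7, 34.9, 19.6 and 26.1. Scarb2, the receptor that delivers glucocerebrosidase, was at 31.2, 27.6, 30.5, 24.7 and 30.9 FPKM. In FPKM it was the 1 lysosomal gene highest in library 1, but under median-of-ratios scaling it was highest in library 5. Mcoln1, a calcium channel that acts upstream of Tfeb, was at 10.4 to 13.5 FPKM. Library 4 was the lowest for Lamp2 and Scarb2, though under median-of-ratios scaling library 2 was the lowest for Scarb2. The 3 lowest CVs of the lysosome set were those of Psap, Lamp1 (9.25%) and Scarb2 (9.67%).

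**Figure D3:**
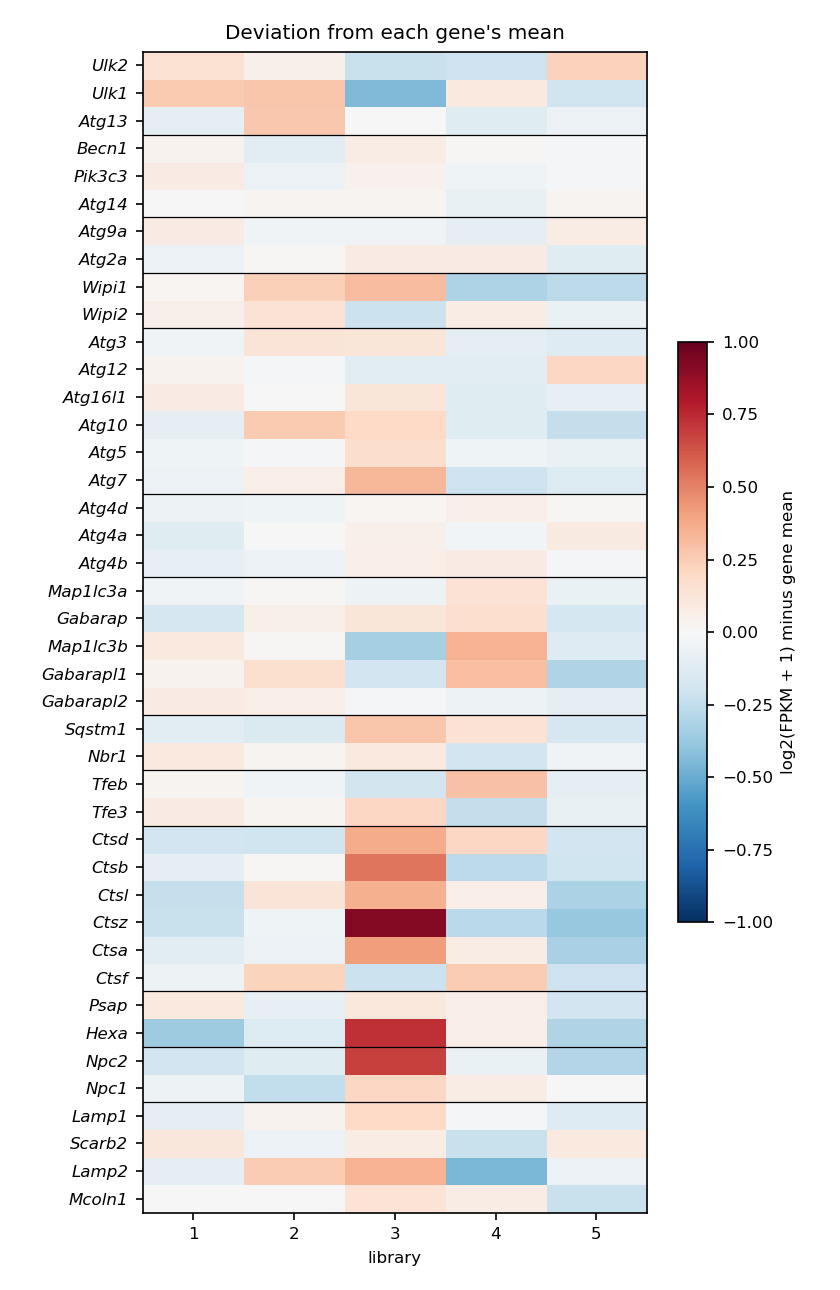
Deviation of each of the 42 genes from its own mean on the log2(FPKM + 1) scale, as colour, by library; rows are grouped by role and red marks values above the mean. The rows of Ctsz, Hexa and Npc2 are darkest in library 3, at 0.92, 0.73 and 0.68, and Ulk1 is lowest there, at -0.44.

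The spread between libraries was smaller in the autophagy set than in the lysosome set. The median CV was 8.93% over the 26 autophagy genes and 19.5% over the 14 lysosomal genes, against 16.3% over all genes tested. The ratio of highest to lowest library reached 1.5-fold for 6 of 26 autophagy genes and 7 of 14 lysosomal genes, against 50.5% of all genes tested, so the lysosomal share was at the background and the autophagy share below it. Without library 3 these counts were 2 of 26 and 1 of 14, against 34.4% of all genes. The median CVs were then 8.03% and 11.0%, against 14.2% over all genes. Relative to the variance trend at each gene's level (limma) the median ratio was 0.43 for autophagy genes, 2.04 for lysosomal genes and 0.97 for all genes. No member passed limma's test for variance above that trend at an adjusted p of 0.05, as 0.0% of all genes did. This lack of calls says little. Ctss, a lysosomal gene outside the members with a ratio of highest to lowest of 7.22, had a limma adjusted p of 0.640. At an unadjusted p of 0.05, 1 of 42 passed, Ctsz, with a limma adjusted p of 0.809, against 5.75% of all genes. The chi-square test on reads called 19 of 26 autophagy genes, 14 of 14 lysosomal genes and both factors beyond counting error, against 88.1% of all genes.

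**Figure D4:**
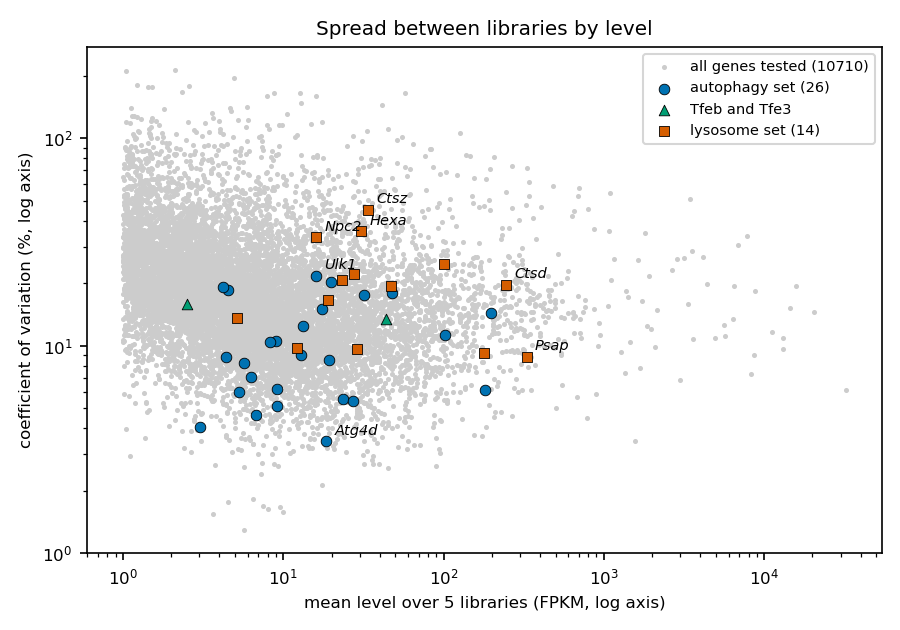
Coefficient of variation over the 5 libraries (percent, log axis) against mean level (FPKM, log axis) for all 10710 genes tested (grey), the autophagy set (circles), the lysosome set (squares) and the 2 transcription factors (triangles). Ctsz, Hexa and Npc2 lie above the other members, at 45.2%, 35.7% and 33.3%, and Atg4d is the lowest at 3.47%.

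Within a library, 14 of 17 pairs of paralogs or partners kept the same order in all 5 libraries. Each of the 14 had an exact two-sided sign-flip permutation p of 0.0625 (0.0759 after Benjamini-Hochberg adjustment over the 17), the smallest that 5 samples allow, so none could pass 0.05. Map1lc3b lay below Map1lc3a by a log2 ratio of -1.93 ± 0.19 and Gabarapl1 below Gabarap by -1.66 ± 0.22 (values ± SD over 5 libraries, pseudocount 1). Lamp1 exceeded Lamp2 by 2.67 ± 0.26, Ctsd exceeded Ctsb by 1.29 ± 0.27 and Ctsl by 2.36 ± 0.19, and Becn1 exceeded Pik3c3 by 0.38 ± 0.05. The steadiest ratio was that of Atg4b to Atg4d, -1.64 ± 0.03. The 3 pairs without a fixed order were Ulk1 and Ulk2, Atg7 and Atg10, and Gabarapl1 and Gabarapl2. These levels rest on the gene length the authors divided by, which was the longest transcript of GENCODE M21 for 27 of the 42 genes. With the length of the principal transcript in its place, Atg12 no longer exceeded Atg5 (-0.01 in place of 0.78), and the ratio of Atg4b to Atg4d was -0.50, that of Wipi1 to Wipi2 0.42, that of Map1lc3b to Map1lc3a -1.23 and that of Ctsd to Ctsl 3.94. Length does not enter a comparison of 1 gene between libraries.

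**Figure D5:**
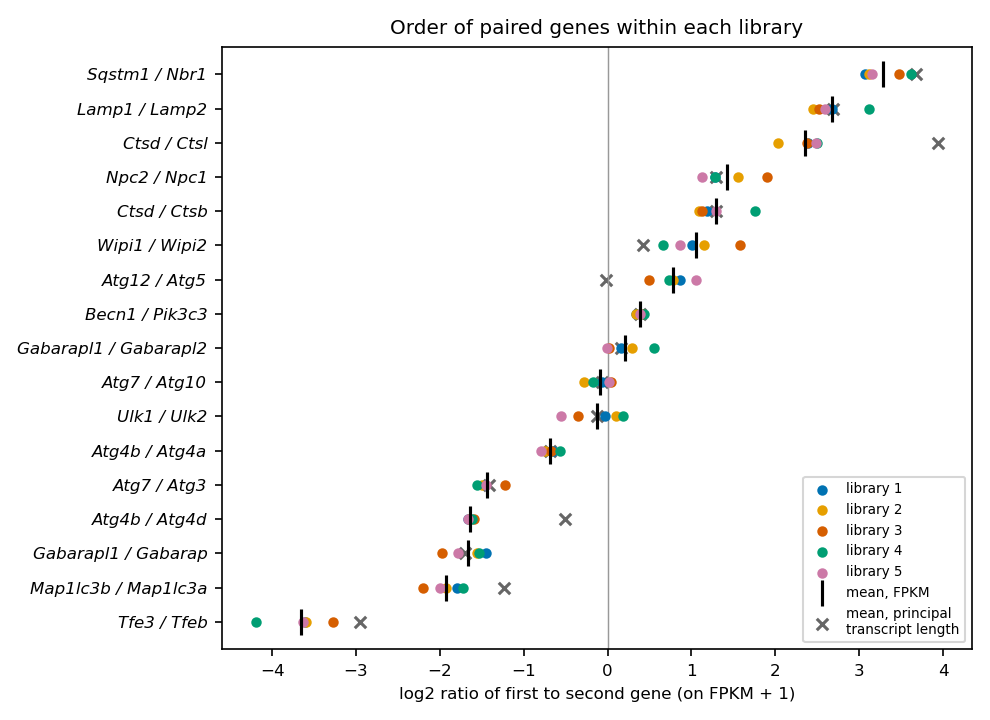
Log2 ratio of the first to the second gene of 17 pairs within each library (coloured points, on FPKM + 1), with the mean (black bar) and the mean when reads are divided by the length of the principal transcript (grey cross). The points of 14 pairs lie on 1 side of 0, and the cross of Atg12 over Atg5 lies at -0.01.

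Other genes of the pathway were taken from lists. Of 55 other lysosomal genes, 38 were highest in library 3, with a mean deviation of 0.44 there, against 0.10 for all genes tested. All genes tested gave 37.4%, and under median-of-ratios scaling the count was 37, against 27.0%. A 1.5-fold ratio of highest to lowest was reached by 36 of the 55, against 50.5%. Cd63, a tetraspanin of lysosomes and vesicles, was at 126, 137, 304, 160 and 111 FPKM. Ctss, a cathepsin of macrophages and other antigen-presenting cells, was at 3.99, 5.22, 28.8, 4.52 and 4.24 FPKM, and Laptm5, a lysosomal membrane protein of blood cells, at 24.1 FPKM in library 3 and 3.21 to 5.25 in the others. Library 3 was apart for all 3, whereas Laptm4a, the most abundant gene of the list, was at 167 to 181 FPKM. Gaa, the acid alpha-glucosidase of glycogen, was at 77.6 to 111 FPKM and highest in library 4. Of 17 subunits and partners of the V-ATPase, the pump that acidifies the lysosome, 9 were highest in library 3 and 4 in library 4, against 37.4% and 10.5% of all genes. Under median-of-ratios scaling these counts were 6 and 8, against 27.0% and 27.5%. Atp6v1g1 was the most abundant of them at 220, 170.0, 227, 317 and 246 FPKM.

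Of 36 other autophagy genes tested (of 38), 12 were highest in library 3 and 15 in library 1, against 37.4% and 21.2% of all genes, and 7 reached a 1.5-fold ratio, against 50.5%. Under median-of-ratios scaling 6 and 5 were highest there, against 27.0% and 13.1%, and 11 and 13 in libraries 4 and 5, against 27.5% and 18.8%. Trp53inp2, which recruits autophagy proteins in muscle, was the most abundant at 90.6, 127, 110, 81.3 and 122 FPKM, followed by the late endosome GTPase Rab7 at 66.3, 76.8, 90.4, 107 and 85.0. Of 35 upstream regulators tested (of 37), among them subunits of mTORC1, AMPK and the Rag GTPases with their partners, 15 were highest in library 1 and 8 in library 3, against 21.2% and 37.4% of all genes. Under median-of-ratios scaling these counts were 6 and 7, against 13.1% and 27.0%, with 15 in library 4, against 27.5%. The AMPK subunit gene Prkag3, known from fast glycolytic fibres, was at 95.5, 28.8, 48.2, 52.9 and 48.9 FPKM, highest in library 1 and lowest in library 2. Prkab2 was at 73.4, 36.1, 34.3, 42.4 and 64.1 FPKM. The scaffold subunit Lamtor1 was level at 62.8 to 68.1 FPKM. In limma's test 0 genes of these 4 lists passed at an adjusted p of 0.05, and 10 of 55 other lysosomal genes, 2 of 35 regulators, 0 of 17 V-ATPase genes and 0 of 36 other autophagy genes passed at an unadjusted p of 0.05, against 5.75% of all genes.

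Promoter sequences were searched for the E-box CACGTG, the core of the element through which Tfeb and Tfe3 are known to bind lysosomal genes. The RefSeq table (GRCm38.p6), with 250 bases before and 50 after each start, held 35 of the 42 genes. CACGTG stood in 6 of 12 lysosomal promoters (Ctsa, Ctsd, Ctsf, Ctsl, Lamp1 and Mcoln1) and in 4 of 21 autophagy promoters (Atg3, Atg5, Atg7 and Atg14). It stood in 12.3% of the 8241 tested genes with a window and 8.09% of all 27025 genes of the promoter table. The longer TCACGTGA, which contains it, stood in 3 of 12 and 1 of 21, against 2.35% of tested genes and 1.12% of all genes of the promoter table. Both strands were searched. The sequences are those of 3 of the 4 lysosomal promoters with 2 or more matches, of the autophagy promoter with the most, and of Hexa, chosen after its values were seen, as a lysosomal promoter with none. They lie at chr8:13158911-13159210 (plus strand), chr8:3500269-3500568 (plus), chr7:142387778-142388077 (minus), chr16:45158579-45158878 (plus) and chr9:59539290-59539589 (plus), and are written 5′ to 3′ with each CACGTG in capitals.
Lamp1: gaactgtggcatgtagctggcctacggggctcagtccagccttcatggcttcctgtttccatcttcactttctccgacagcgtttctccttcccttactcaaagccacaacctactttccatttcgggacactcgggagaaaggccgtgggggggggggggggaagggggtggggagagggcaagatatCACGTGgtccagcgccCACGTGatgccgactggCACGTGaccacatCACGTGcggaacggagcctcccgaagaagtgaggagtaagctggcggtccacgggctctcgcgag
Mcoln1: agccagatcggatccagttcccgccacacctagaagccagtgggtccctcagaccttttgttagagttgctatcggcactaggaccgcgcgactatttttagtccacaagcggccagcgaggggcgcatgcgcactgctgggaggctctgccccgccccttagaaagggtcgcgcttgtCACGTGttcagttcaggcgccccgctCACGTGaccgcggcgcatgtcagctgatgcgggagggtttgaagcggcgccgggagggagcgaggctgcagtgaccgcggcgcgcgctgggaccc
Ctsd: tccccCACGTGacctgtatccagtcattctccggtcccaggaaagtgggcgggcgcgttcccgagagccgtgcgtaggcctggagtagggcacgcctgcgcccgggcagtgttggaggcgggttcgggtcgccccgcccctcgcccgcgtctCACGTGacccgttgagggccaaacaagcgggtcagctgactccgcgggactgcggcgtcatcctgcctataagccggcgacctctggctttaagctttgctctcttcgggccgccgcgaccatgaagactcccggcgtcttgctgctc
Atg3: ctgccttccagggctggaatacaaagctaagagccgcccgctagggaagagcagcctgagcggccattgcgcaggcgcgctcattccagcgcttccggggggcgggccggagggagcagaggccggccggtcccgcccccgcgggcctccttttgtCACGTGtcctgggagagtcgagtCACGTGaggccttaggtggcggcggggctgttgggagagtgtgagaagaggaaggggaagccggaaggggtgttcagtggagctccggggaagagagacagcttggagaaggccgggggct
Hexa: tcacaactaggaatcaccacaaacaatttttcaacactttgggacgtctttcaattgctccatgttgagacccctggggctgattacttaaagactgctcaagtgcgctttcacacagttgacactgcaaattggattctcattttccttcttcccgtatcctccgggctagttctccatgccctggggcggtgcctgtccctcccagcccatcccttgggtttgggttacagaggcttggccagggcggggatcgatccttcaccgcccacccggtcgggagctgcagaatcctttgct

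Lamp1 had 4 matches, and Mcoln1, Ctsd and Atg3 had 2 each. The 6 lysosomal genes with a match had deviations in library 3 from -0.21 (Ctsf) to 0.42, with a median of 0.28. Of these, 5 were highest there, against 37.4% of all genes tested. The 6 with a window and no match (Ctsz, Lamp2, Scarb2, Hexa, Psap and Npc2) had deviations from 0.07 to 0.92, with a median of 0.51. Of these, 5 were also highest there, against the same 37.4%. The genes that stood farthest out in library 3, Ctsz, Hexa and Npc2, were thus among those without the motif in this window. A match is only a run of letters, and its absence from these 300 bases says nothing of the factors.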

How the data were processed

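RNA was extracted with Trizol from about 20 mg of muscle, and poly-T beads were used to select messenger RNA, per the labels' protocols. Tools listed without role or order, per the submitters' processing notes, are STAR 2.5 and TopHat, HTSeq 0.6.1, edgeR and DESeq2, with the build mm10. The annotation, the strand setting and the handling of multiply matching reads: not given in the sources used here.

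Deposited by the authors were FPKM values, which are whole multiples of 1 read: for 20839 of 20840 genes above 0 (99.995%) a length was found, first among the transcript lengths of GENCODE M21, that gave whole reads within 0.001 in every library, and it was that of the longest transcript for 14370. The recovered reads summed to 99.9% of each library total. For 15 members the reads rest on a length other than the longest transcript and could be off by a common factor, which would not change their FPKM.

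The 10710 genes whose mean reached 1 FPKM entered the tests, on log2(FPKM + 1) with limma 3.58.1 in R 4.3.3 (intercept, variance over trend, a one-sided F test with 4 and 3.93 degrees of freedom, adjusted by Benjamini-Hochberg), and on reads with a chi-square test. Both, and the recovery of reads, were also run on simulated data, with the outcome not given here. Alternatives were other scalings, filters, a pseudocount of 0.1, other gene lengths and each library left out. Other steps used Python 3.11.15, numpy 2.4.6, scipy 1.17.1 and pandas 2.3.3. The rule for the members uses no measured value, but it, the lists, pairs and tests were chosen with earlier results of these data known. All 42 members are given; full values are given for both genes of each pair, the 2 highest means, and the 5 highest and 3 lowest CVs of each set, and for other lists the 3 highest means and 2 largest ratios at 5 FPKM or more, of which some are named. Lists of endothelial, satellite cell, neutrophil and Schwann cell markers were also measured. Of these, 1 of 7, 1 of 1 tested, 0 of 2 tested and 4 of 5 were highest in library 3, against 37.4% of all genes tested. The neutrophil markers, of which Ly6g was at 0 in every library, summed to 6.64 and 10.2 FPKM in libraries 1 and 2 and to 0.424 to 1.01 in the others.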

Additional observations from a re-analysis of the deposited data

Results flagged for a closer look

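Of 62 sets of 5 values examined (42 genes, 3 list values and 17 ratios), 7 had 1 library far from the other 4 by Dixon's test at its 95% critical value. For independent, normally distributed values about 1 in 20 would be flagged. The ratios and list values are made of the same genes, so the 62 sets are not independent. The share of all genes tested that this rule flags was not taken, so the count of 7 has no background here. In library 3, 3 lysosomal genes stood apart: Ctsb at 143 FPKM against 81.9 to 99.0, Ctsz at 60.8 against 24.2 to 30.9, and Npc2 at 25.3 against 12.4 to 14.7. Atg5 was also highest there, at 5.07 FPKM against 4.13 to 4.31, although its reads did not differ beyond counting error. The lysosome set minus the autophagy set was 0.33 in library 3 against -0.13 to -0.02 (log2). In library 2, Atg13 was highest at 16.1 FPKM against 12.0 to 13.1. The log2 ratio of Ctsd to Ctsl was lowest in library 2, at 2.03 against 2.38 or more in the others.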

How the results depend on the processing

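The lysosome set minus the autophagy set kept its sign in library 3 under every alternative and moved by less than the SD between libraries in all 5; with the median over members the value in library 4 was 0.11 in place of -0.02. Without library 3 the other values were -0.05 to 0.06. Median-of-ratios scaling moved the median of all genes in library 4 from -0.10 to 0.02 (log2) and in library 3 from 0.06 to -0.02. Under it the numbers of lysosomal genes highest in libraries 1, 2, 3, 4 and 5 were 0, 0, 7, 6 and 1, in place of 1, 0, 12, 1 and 0, and those of autophagy genes were 0, 2, 4, 14 and 6, in place of 4, 5, 7, 7 and 3. Values rescaled to the same sum (TPM) gave 2, 1, 11, 0 and 0 lysosomal genes and 5, 3, 12, 3 and 3 autophagy genes. With only genes at 5 FPKM or more, 4 autophagy genes were highest in library 3, and the share of all genes was not taken at that filter. With it, 5513 of all genes were called beyond counting error in place of 9436, since fewer were tested. Leaving out 1 library gave 1 to 2 lysosomal genes highest in library 1, 0 to 5 in library 2, 12 to 12 in library 3, 1 to 7 in library 4 and 0 to 1 in library 5. The same counts for autophagy genes were 5 to 6, 5 to 8, 8 to 11, 7 to 8 and 3 to 4. Those of all 10710 genes tested were 2609 to 3359, 2620 to 4398, 4175 to 4789, 1256 to 1847 and 996 to 1421. The 7 lysosomal genes in library 4 were found without library 3, where 1847 of all genes were highest in library 4. The 1.5-fold ratio was reached by 1 (without library 3) to 7 lysosomal genes and by 2 (without library 3) to 6 autophagy genes, with 3 without library 4. With 1 library left out the share of all genes was 34.4% (without library 3) to 45.2%, with 39.3% without library 4. The chi-square test called 31 to 34 members with 1 library left out and 38 under median-of-ratios scaling, in place of 35 of 42. Of all genes it called 8358 to 9031 and 9118, in place of 9436 of 10710. Limma called 0 to 4 of all genes with 1 library left out, the 4 without library 3, and no member. Divided by the principal transcript length, an alternative chosen after the lengths were seen, the ratio of Atg12 to Atg5 was -0.01 in place of 0.78, and 13 pairs kept 1 order in place of 14. The 1.5-fold counts were also chosen after the values were seen. Of the motif counts, those of CACGTG and TCACGTG in the autophagy set fell from 4 to 3 and from 3 to 2 in the bases before the start, and those of the lysosome set were the same for each motif searched. The share of all tested genes with CACGTG was then 10.4% in place of 12.3%, and that with TCACGTGA 1.88% in place of 2.35%. No paired analysis was possible because there is 1 group. Exons of 15 members overlap those of another gene, by 10% or more of the exon bases for 10, such as Ctsb with Fdft1 (12.8%) and Sqstm1 with Mrnip (17.3%), and without a known strand setting such reads cannot be told apart.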
